A study of Homo sapiens with 30 samples.

Results

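The sites described here are adenosines inside the annotated stop codons of protein-coding messages in HEK 293T, a line of human embryonic kidney origin, in cells that received RNA-editing deaminases. From a deposited list of 382978 A-to-G sites, 1180 positions in 1095 genes were chosen because they lie in the stop codon of the GENCODE release 29 transcript (GRCh38) taken for each gene, the APPRIS principal one and then the longest. They were sorted by what an A-to-G change does to the codon. At 824 sites the change turns the stop codon into a tryptophan codon, called readthrough sites here (537 amber UAG and 287 opal UGA codons). At 356 sites it turns an ochre UAA codon into another stop codon, 164 at its second base and 192 at its last.

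The deaminase libraries carried 3 kinds of construct, and no condition had more than 1 library. In 16 libraries the deaminase domain (DD) of ADAR2 or ADAR1 was joined to MCP (the MS2 hairpin-binding coat protein) as MCP-ADAR2 DD (E488Q), MCP-ADAR2 DD, MCP-ADAR1 DD (E1008Q) and MCP-ADAR1 DD, each carrying a signal for nuclear localisation (NLS) or for nuclear export (NES), with or without an MS2 adRNA guide. In 4 libraries full-length ADAR2 (E488Q) or ADAR2 was expressed with or without a GluR2 adRNA. In 2 libraries Cas13b-ADAR2 DD (E488Q) was expressed with or without a gRNA driven by the U6 promoter. The E488Q and E1008Q substitutions, called E-to-Q here, are known as more active forms. The references were a GFP transfection, 3 transfections of a guide alone, and 3 sequencing runs of 1 untransfected library, which are technical repeats. All but the untransfected cells went through Lipofectamine transfection, and RNA was collected 60 h later and selected for poly(A). The tables hold shares of reads with G and adjusted p-values but no read counts and no expression levels, so the read depth of every share is unknown, and the cell line could not be checked against marker genes.

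ADAR enzymes deaminate adenosine to inosine in double-stranded RNA, and inosine is read as guanosine by ribosomes and by reverse transcriptase. They are known to favour a U or A before the target adenosine and a G after it, and to disfavour a G before it. An amber codon places its only adenosine between U and G, whereas the opal codon places it behind a G. In the ochre codon the second base follows a U and the last follows an A, and a tryptophan codon arises only when both are edited in 1 molecule. Readthrough of a stop codon lets the ribosome continue into the 3′ UTR until the next in-frame stop codon, which adds a peptide to the C-terminus.

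The messages on which the results turn are shown as 27 nt windows of the GENCODE release 29 transcript, written as DNA with 12 bases on either side of the stop codon, which is in capitals. The coordinates are those of the stop codon on GRCh38. The first set holds amber codons with large mean rises in share and illustrates the U-to-G setting of the adenosine.
DNM2 (amber, chr19:10831045-10831047, plus strand): tccctgctcgacTAGgcctcgaggggg
MED21 (amber, chr12:27028459-27028461, plus strand): cttccagactcaTAGcatcagtggata
GATA2 (amber, chr3:128481019-128481021, minus strand): accgccatgggcTAGggaacagatgga
FAM219A (amber, chr9:34400964-34400966, minus strand): tgccacattcagTAGcgggcggggcca
IPO4 (amber, chr14:24180442-24180444, minus strand): ctgggcctctccTAGactgcaggctgc
CREBBP (amber, chr16:3727718-3727720, minus strand): gtggagggcttgTAGcattgtgagagc
TRIB3 (amber, chr20:396688-396690, plus strand): gttctgtatggcTAGgaccaccctact
The second set holds opal codons with large differences between enzyme forms, in which the adenosine follows a G.
ETS2 (opal, chr21:38822887-38822889, plus strand): gacacggaggacTGAggtcgccgggac
ST7 (opal, chr7:117229855-117229857, plus strand): ctaacacggatcTGAgagaagccctgt
CRABP2 (opal, chr1:156700026-156700028, minus strand): tacgtccgagagTGAgtggccacaggt
PCNX3 (opal, chr11:65636976-65636978, plus strand): gaacaccagtacTGAgctacctggcgc
LRPAP1 (opal, chr4:3512974-3512976, minus strand): cacaacgaactcTGAaggcattgggga
The third set holds ochre codons, in which the second and last bases can each be edited.
CDIP1 (ochre, chr16:4512572-4512574, minus strand): aagcgcctgtgcTAAcggagctgggac
UQCRFS1 (ochre, chr19:29207548-29207550, minus strand): gtgattgttggtTAAgagacttggact
RPS3 (ochre, chr11:75404863-75404865, plus strand): gtccccacagcaTAAcagggtctcctt
CDK2AP2 (ochre, chr11:67506945-67506947, minus strand): aacgcccgcacgTAAcaggaagcgcct
ZBTB7B (ochre, chr1:155016683-155016685, plus strand): atggagtcctctTAAagagggacgagg
RPSA (ochre, chr3:39412366-39412368, plus strand): actgactggtctTAAgctgttcttgca
The last set holds amber codons whose share depended on the deaminase domain or fell with E-to-Q.
MDK (amber, chr11:46383492-46383494, plus strand): aagggaaaggacTAGacgccaagcctg
TNPO3 (amber, chr7:128957255-128957257, minus strand): aggttgtttcgaTAGctcacactcctg
PCNA (amber, chr20:5115283-5115285, minus strand): gaagaaggatctTAGgcattcttaaaa
ACTB (amber, chr7:5527748-5527750, minus strand): cgcaaatgcttcTAGgcggactatgac

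Amber codons were the stop codons most often present in the list. Of the adenosines in amber stop codons of transcripts with any listed site, 28.4% (537 of 1888) were listed, against 6.57% (287 of 4368) in opal codons. In ochre codons 6.57% (164 of 2496) of second bases and 7.69% (192 of 2496) of last bases were listed. Amber sites were also ahead in the size of the change, while the order of the other classes differed from that of the listing. The rise in share over the untransfected mean, averaged over the 22 deaminase libraries, had a median of 3.95 percentage points at amber sites and 1.78 points at opal sites. It was 2.11 points at ochre second bases and 1.40 points at ochre last bases, beside 2.60 points over all listed sites. These are descriptions of a list that holds sites called in at least 1 library, and the reads behind each site are unknown.

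The base after the stop codon went with the listing of those adenosines that it touches. At opal codons followed by G, 12.9% (206 of 1602) were listed, against 4.27% before C, 2.57% before A and 1.63% before T. At ochre last bases the figures were 17.2% (100 of 580) before G, 8.23% before C, 4.47% before A and 2.21% before T. CRABP2, ETS2, ST7 and PCNX3, shown above, have a G at that place, and LRPAP1 has an A. Amber adenosines do not touch this base, and their listing was 38.8% (205 of 529) before G, 26.8% before C, 24.3% before A and 20.1% before T. Ochre second bases, also 1 base away from it, were listed at 9.83% before G and 4.24% before T.

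Amber stop codons were also set against other adenosines in the same setting, U before and G after, in the same transcripts. Counted per transcript, 28.5% of the amber stop adenosines were listed (541 of 1900), against 17.4% (15487 of 89015) in coding sequence, 7.59% in 3′ UTRs and 7.20% in 5′ UTRs. Nearby sequence was closer, with 19.0% (484 of 2545) in the 60 nt before the stop codon and 19.8% (815 of 4111) in the 60 nt after it. Adenosines after a G were listed at 6.59% in opal stop codons, against 2.59% in coding sequence and 1.27% in 3′ UTRs. Ochre second bases were listed at 6.56%, against 4.50% of adenosines between U and A in coding sequence and 1.61% in 3′ UTRs. Pooled over the next base, ochre last bases were listed at 7.77%, against 7.90% of adenosines after an A in coding sequence and 2.78% in 3′ UTRs. Split by the next base, they were above coding sequence before G (17.4% against 15.7%), A (4.54% against 2.83%) and C (8.42% against 7.75%). Before T they were below it (2.21% against 2.63%). Their pooled mean rise when listed was 2.53 points against 3.84 points in coding sequence. The mean rise of the listed amber stop sites was 5.63 points, close to the 5.64 points of listed coding sites and the 6.45 points of listed 3′ UTR sites in this setting. Read coverage at these places was not available and its part in the listing was not tested.

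**Figure D1:**
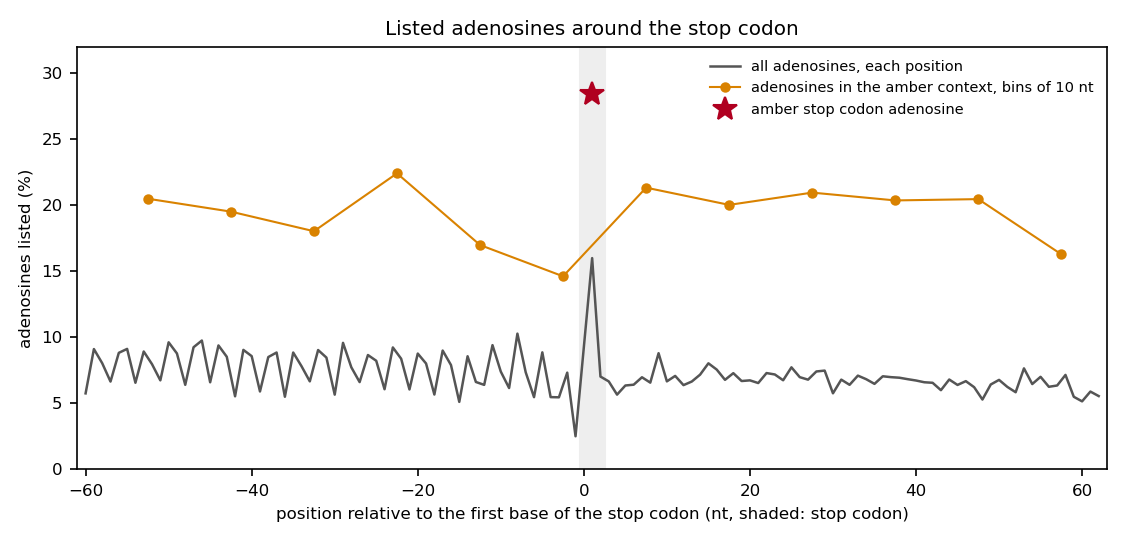
Percentage of adenosines listed (y axis) by position relative to the first base of the stop codon (x axis, nt) in transcripts with a listed site. The grey line gives all adenosines at each position, the orange points give adenosines with the amber neighbours in bins of 10 nt, and the star at 28.5% is the amber stop codon adenosine, which lies above all of those bins.

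No control library had a called stop codon site, and all deaminase libraries had at least 14. A site was called in a library where the authors' deposited table gave an adjusted p under 0.01 and the share exceeded the untransfected mean. On this rule the 22 deaminase libraries had 14 to 805 called stop codon sites, with a median of 134. GFP had 0 of 1180 (background 0.00157% of all listed sites), and so had the guides expressed alone, with a background of 0.00366% for the MS2 adRNA, 0.0047% for the GluR2 adRNA and 0.00601% for the Cas13b gRNA. Untransfected runs 2, 3 and 4 also had 0, beside a background of 0.0%, 0.000261% and 0.00104%. The highest untransfected mean at a stop codon site was 3.10%, in MANBAL.

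Among MCP-ADAR2 fusions, the wild-type NLS form had the fewest called stop codon sites. MCP-ADAR2 DD (E488Q)-NLS had 138 with guide (11.7% of the 1180, against 9.94% of all listed sites) and 104 without (8.81% against 7.32%). MCP-ADAR2 DD (E488Q)-NES had 146 with guide (12.4% against 11.2%) and 130 without (11.0% against 9.21%). MCP-ADAR2 DD-NLS had 16 with guide (1.36% against 1.24%) and 14 without (1.19% against 0.982%), and MCP-ADAR2 DD-NES had 69 (5.85% against 5.29%) and 34 (2.88% against 2.48%).

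Among MCP-ADAR1 fusions, the E1008Q NES form had the most. MCP-ADAR1 DD (E1008Q)-NLS had 455 with guide (38.6% against 28.9%) and 363 without (30.8% against 23.5%). MCP-ADAR1 DD (E1008Q)-NES had 730 with guide (61.9% against 51.1%) and 805 without (68.2% against 59.2%). MCP-ADAR1 DD-NLS had 118 with guide (10.0% against 7.45%) and 90 without (7.63% against 5.35%), and MCP-ADAR1 DD-NES had 407 (34.5% against 26.4%) and 425 (36.0% against 30.3%).

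In the other constructs, ADAR2 (E488Q) had 429 called stop codon sites with the GluR2 adRNA (36.4% against 32.7%) and 78 without (6.61% against 6.72%). ADAR2 had 68 with the guide (5.76% against 4.85%) and 15 without (1.27% against 1.5%). Cas13b-ADAR2 DD (E488Q) had 187 with gRNA (15.8% against 12.9%) and 375 without (31.8% against 29.5%). In 20 of the 22 libraries the percentage of stop codon sites called was above that of all listed sites, and in both full-length ADAR2 libraries without guide it was below. All of these libraries share the same untransfected reference.

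**Figure D2:**
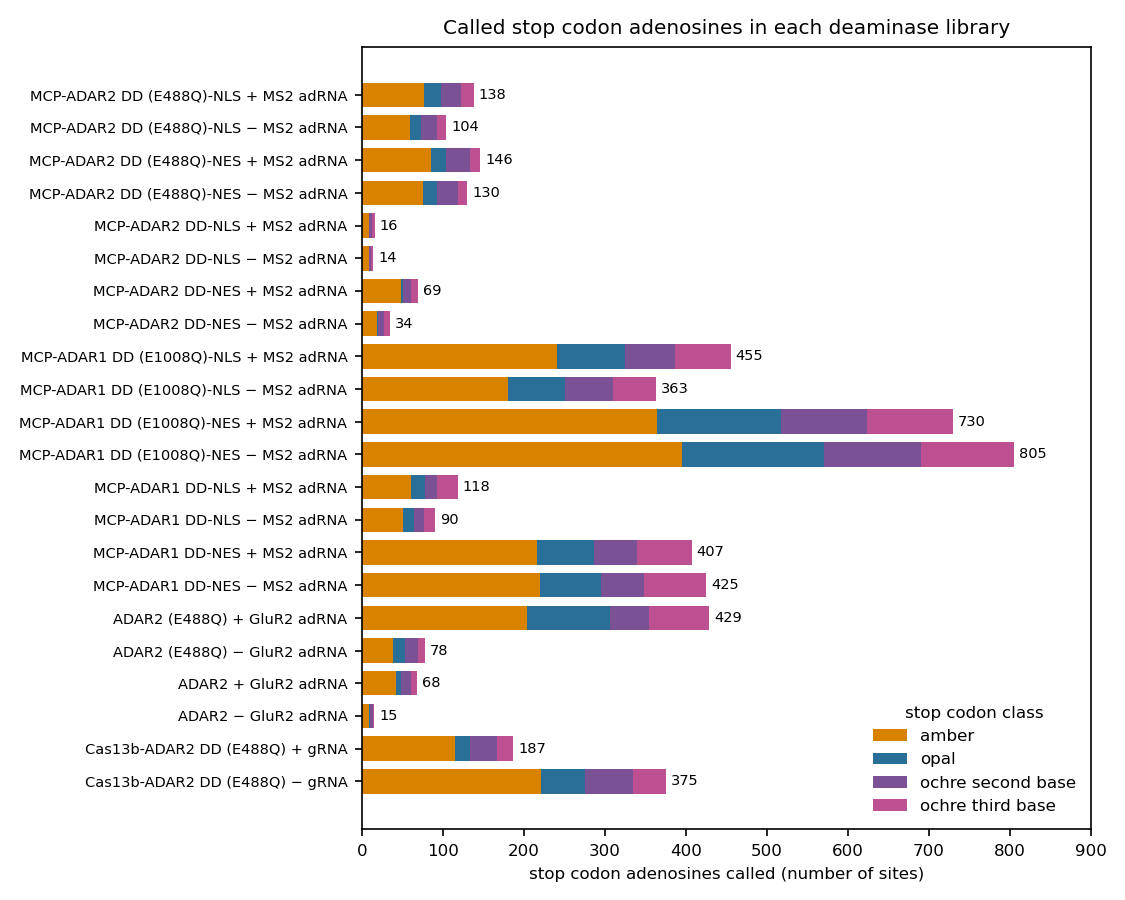
Number of called stop codon adenosines (x axis) in each of the 22 deaminase libraries (rows; + and − give the guide), split by stop codon class. The bars run from 14 sites in MCP-ADAR2 DD-NLS without guide to 805 in the guide-free MCP-ADAR1 DD (E1008Q)-NES library.

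The strongest readthrough site was in DNM2, which codes for dynamin 2, a GTPase that severs vesicles from membranes during endocytosis. Its share in MCP-ADAR2 DD (E488Q) libraries was 49.1% and 50.4% for NLS with and without guide and 58.5% and 52.3% for NES. In MCP-ADAR2 DD libraries it was 36.4% and 27.4% for NLS and 49.0% and 41.3% for NES, in the same guide order. In MCP-ADAR1 DD (E1008Q) libraries it was 70.3% and 50.9% for NLS and 66.4% and 69.1% for NES, and in MCP-ADAR1 DD libraries 68.4% and 55.0% for NLS and 71.0% and 68.8% for NES. The full-length enzyme gave lower shares at this codon, with 38.7% and 8.91% for ADAR2 (E488Q) and 14.3% and 5.56% for ADAR2, with and without guide. Cas13b-ADAR2 DD (E488Q) gave 39.6% with and 43.4% without gRNA. The site was listed at 0% in all 3 untransfected runs, was called in 21 of 22 libraries and rose by 47.0 ± 19.6 points on average (SD over 22 libraries).

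Other leading readthrough sites lay in messages of unrelated function. MED21, a subunit of the Mediator complex, gained 27.1 ± 15.3 points and was called in 13 libraries. ZNF275, a zinc finger protein, gained 26.8 ± 13.5 points (11 libraries), and GATA2, a transcription factor of blood stem cells, gained 26.5 ± 17.4 points (14 libraries). FAM219A gained 25.6 ± 21.3 points (11 libraries). IPO4, an importin that carries histones and ribosomal proteins into the nucleus, gained 25.2 ± 9.55 points, and its share ranged from 10.4% to 48.4% with a median of 24.9%. It was the only readthrough site called in all 22 libraries, but it also lies in an exon of another gene, and reads of these genes cannot be told apart because the kit is not stated to keep strand. The only other member called in all 22 was the ochre last base of RPS3.

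TJAP1, a tight junction-associated protein, gained 25.2 ± 16.3 points and was called in 17 libraries. CREBBP, a histone acetyltransferase, gained 24.6 ± 15.2 points (15 libraries) from an untransfected mean of 1.28%. TRIB3, a pseudokinase induced by cell stress, gained 23.2 ± 13.9 points (11 libraries). HIP1R, which links clathrin coats to actin, gained 22.8 ± 13.0 points (11 libraries), and COQ8A, needed for coenzyme Q synthesis, gained 22.7 ± 10.8 points (19 libraries). These and DNM2, 11 sites in all, were amber codons. The opal codon with the largest mean rise, 20.1 ± 18.4 points, was that of the transcription factor ETS2. Shares of 50% or more in at least 1 library were listed at 29 amber sites (5.40%) and 8 opal sites (2.79%), beside 4.52% of all listed sites.

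**Figure D3:**
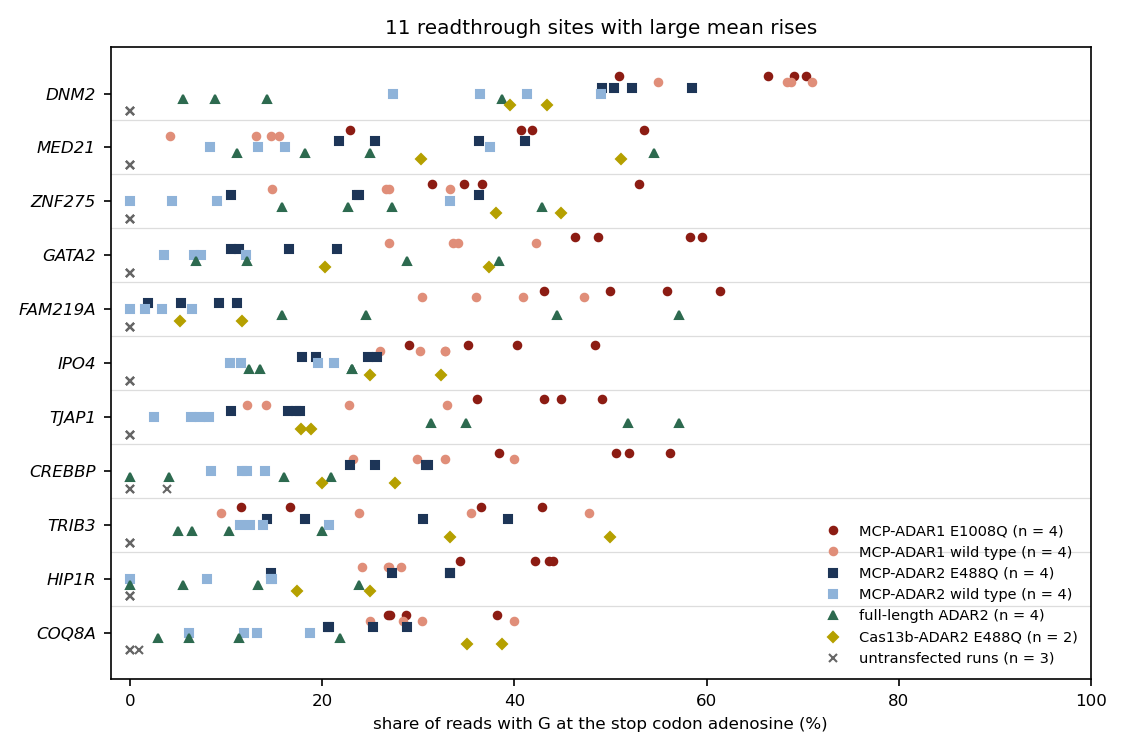
Share of reads with G (x axis, %) at 11 readthrough sites with large mean rises (rows), with 1 point per library and a colour for each type of construct. DNM2 lies between 5.56% and 71.0% and IPO4 between 10.4% and 48.4%, and the untransfected runs lie at or near 0 in all rows.

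Stop-to-stop changes were smaller as a group, with a median mean rise of 1.64 points against 3.01 points at readthrough sites. Against opal sites alone this did not hold for ochre second bases, with 2.11 points against 1.78 points. CDIP1, which takes part in p53-dependent cell death, led with a rise of 22.4 ± 15.5 points at its second base, and its share ranged from 3.26% to 50.9% with a median of 19.0%. UQCRFS1, the Rieske iron-sulfur subunit of respiratory complex III, gained 17.2 ± 11.9 points at its second base, and PDAP1, a phosphoprotein, 17.1 ± 18.7 points. At last bases PCSK6, a proprotein convertase, gained 17.1 ± 17.7 points, ANKRD27, an effector of small GTPases in vesicle traffic, 16.4 ± 15.9 points, and ZNF266, a zinc finger protein, 15.4 ± 18.7 points. PCSK6 also overlaps an exon of another gene, and UQCRFS1 has a pseudogene named after it, so reads of these sites could be shared.

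RPS3, a protein of the small ribosomal subunit, was edited in every deaminase library at its ochre last base, with shares of 1.95% to 35.3%, a median of 11.3% and an untransfected mean of 0.134%. The highest shares, 34.8% with and 35.3% without gRNA, were in the Cas13b libraries. The gene has a pseudogene named after it.

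Both adenosines of an ochre codon were listed in 85 of 271 ochre codons with a listed site, and in 79 of these both were called in the same library at least once. In CDK2AP2, a binding partner of a CDK2 regulator, the second and last bases had 43.2% and 42.4% in ADAR2 (E488Q) with guide, and both bases were called in 12 libraries. In ZBTB7B, a transcription factor that directs helper T cell fate, both bases had 64.3% in the same library. PCSK6 and GPSM1, a regulator of G protein signalling, completed the 4 codons with the highest lower share of both bases, averaged over the 22 libraries. In 50 of the 85 codons the second base had the larger mean rise. The tables do not link bases within a read, so the share of molecules with both changes, which would read as tryptophan, is not known.

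Matched pairs of libraries were used to describe how the number of called stop codon sites moved with each feature of the construct. E-to-Q forms had more called stop codon sites than wild type in 10 of 10 pairs, by a geometric mean of 3.94-fold (1.79-fold to 8.63-fold), the same as the 3.94-fold for all listed sites. NLS forms had fewer than NES forms in 8 of 8 pairs, by 2.31-fold (1.06-fold to 4.72-fold), beside 2.46-fold for all sites. ADAR2 domains had fewer than ADAR1 domains in 8 of 8 pairs, by 5.78-fold (3.30-fold to 12.5-fold), beside 5.22-fold for all sites. Libraries with guide had more than libraries without in 8 of 11 pairs, by 1.45-fold with a range from 0.499-fold to 5.50-fold, beside 1.40-fold for all sites. That mean pools different guides. The Cas13b gRNA pair was at 0.499-fold, the GluR2 adRNA pairs at 4.53-fold and 5.50-fold, and the MS2 adRNA pairs at 0.907-fold to 2.03-fold. Since pairs share constructs and each condition is 1 library, these folds are given with no test. All 1180 sites were called in at least 1 deaminase library, so libraries with many calls weigh on which sites are counted here.

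**Figure D4:**
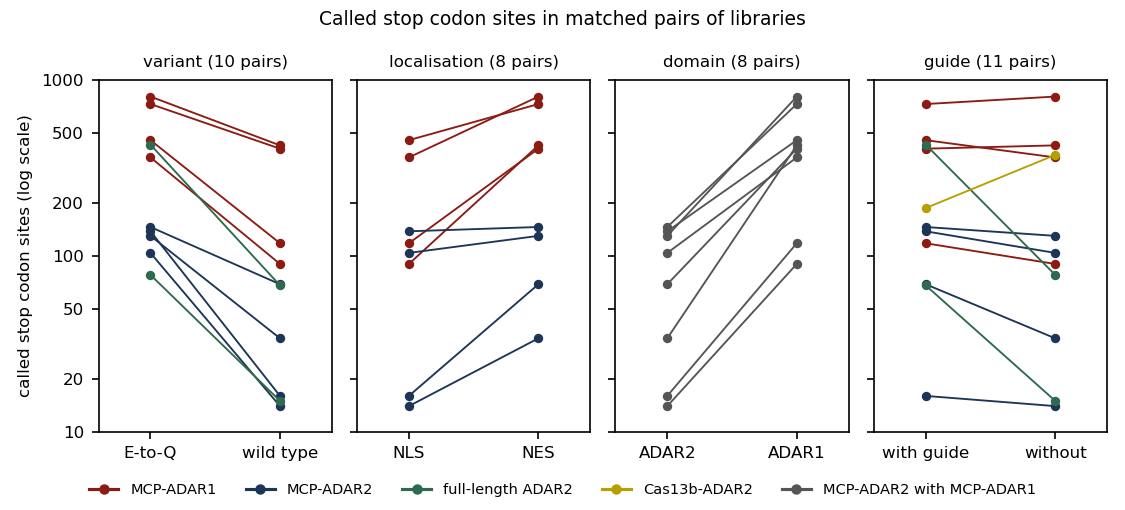
Called stop codon sites (y axis, log scale) in matched pairs of libraries joined by a line, for E-to-Q and wild type (10 pairs), NLS and NES (8), ADAR2 and ADAR1 domain (8) and with and without guide (11). All lines of the variant panel fall to the right, all lines of the localisation and domain panels rise to the right, and those of the guide panel go both ways.

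Opal codons made up a larger part of the calls in E-to-Q libraries than in wild-type libraries, for both domains. Of the stop codon calls summed over the 4 MCP-ADAR1 DD (E1008Q) libraries, 20.5% (483 of 2353) were opal, against 16.8% (175 of 1040) for MCP-ADAR1 DD. For MCP-ADAR2 DD (E488Q) 13.5% (70 of 518) were opal, against 3.01% (4 of 133) for MCP-ADAR2 DD. By library, MCP-ADAR2 DD had 0 or 2 called opal sites and MCP-ADAR2 DD (E488Q) 14 to 20, with no overlap. The same groups did not overlap for amber sites (9 to 48 against 59 to 85) or for all listed sites (0.982% to 5.29% against 7.32% to 11.2%) either. Over the 8 pairs, E-to-Q forms had 3.09-fold the summed opal calls of wild type, 2.88-fold the ochre second base calls, 2.34-fold the amber calls and 1.91-fold the ochre last base calls. ADAR2 domains had 8.89-fold fewer opal calls, 6.93-fold fewer ochre last base calls, 4.55-fold fewer amber calls and 3.97-fold fewer ochre second base calls than ADAR1 domains. Classes differ in their shares and each call depends on depth, and the difference between classes was not tested.

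**Figure D5:**
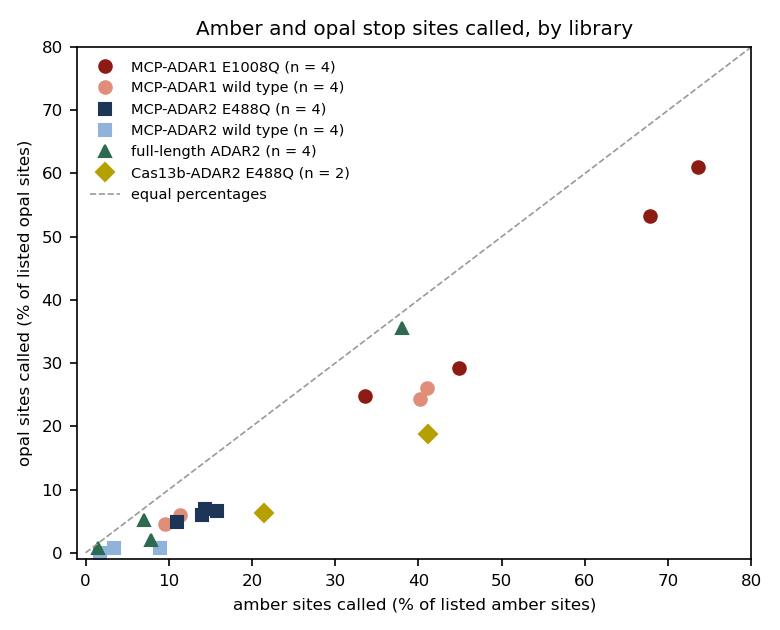
Percentage of the 537 listed amber sites (x axis) and of the 287 listed opal sites (y axis) called in each deaminase library, with the dashed line where both are equal. All 22 points lie below the line. The highest is at 73.6% of amber and 61.0% of opal sites, in the guide-free MCP-ADAR1 DD (E1008Q)-NES library. The lowest amber value, 1.49%, is in ADAR2 without guide (0.697% of opal sites). The lowest opal value, 0%, is in both MCP-ADAR2 DD-NLS libraries (1.68% of amber sites).

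Single sites were compared across the 16 MCP libraries with limma after an arcsine square root transform of each share, using Benjamini-Hochberg adjustment over all 382978 sites and a threshold of 0.05. E-to-Q forms raised the share at 539 of the 1180 stop codon sites (45.7%, background 39.7%) and lowered it at 8 (0.678%, background 0.72%), 547 in all against a background of 40.4% in either direction. Among readthrough sites 389 rose and 5 fell, and among stop-to-stop sites 150 rose and 3 fell. The mean share over the 1180 sites was 6.05% in E-to-Q libraries and 2.81% in wild-type libraries, with a median difference of 1.94 points, beside 1.57 points over all listed sites. Of the listed classes, 49.5% of amber, 42.9% of opal, 50.6% of ochre second base and 34.9% of ochre last base sites rose.

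Rises with E-to-Q in 8 of 8 pairs are given here first for 3 opal codons and then for sites of the other classes. ST7, a membrane protein named as a suppressor of tumorigenicity, averaged 28.4% with E-to-Q and 4.23% with wild type (difference 24.2 ± 16.2 points, limma adjusted p = 0.000305). CRABP2, which carries retinoic acid in the cytoplasm, averaged 25.5% and 2.23% in those groups (23.3 ± 20.1 points, limma adjusted p = 0.00034), and ETS2 37.6% and 14.8% (22.7 ± 9.46 points, limma adjusted p = 9.7e-05). ST7 was called in only 3 libraries, against 9 each for CRABP2 and ETS2. Within the NES libraries alone the limma adjusted p of ST7 was 0.052, and within the NLS libraries alone that of CRABP2 was 0.054, each from fewer libraries. Differences of similar size were found in the other classes, with 22.6 ± 9.35 points at the ochre second base of CDIP1, 20.9 ± 6.70 points at that of CDK2AP2 and 20.1 ± 11.3 points at the amber codon of MED21.

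The 8 sites that fell with E-to-Q included the ochre last base of RPSA, the laminin receptor that is also a small ribosomal subunit protein, and the amber codon of ACTB, cytoplasmic beta-actin. RPSA averaged 4.92% with E-to-Q and 8.90% with wild type (-3.97 ± 1.87 points, lower in 8 of 8 pairs, limma adjusted p = 0.0059). ACTB had 2.04%, 1.75%, 2.59% and 3.32% in MCP-ADAR1 DD (E1008Q) libraries, against 3.28%, 4.58%, 7.84% and 7.48% in MCP-ADAR1 DD libraries, and its shares in all MCP-ADAR2 libraries were at most 0.769%. Its mean difference was -1.83 ± 2.00 points (limma adjusted p = 0.033, lower in 8 of 8 pairs). The limma adjusted p of ACTB was 0.071 on shares as deposited, and leaving out any 1 of 8 libraries raised it to between 0.050 and 0.067. Within the NES or the NLS libraries alone the limma adjusted p was 0.084 and 0.11 for RPSA and 0.13 and 0.25 for ACTB, each from fewer libraries. Both genes have pseudogenes named after them. The other lower sites, the second base of RPSA and the codons of TYRO3, SLC35F5, CMC1, S100A11 and RAD21, were lower in 4 to 7 of 8 pairs.

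The rise with E-to-Q was larger for the ADAR1 domain at 50 stop codon sites (4.24%, background 3.44%) by the limma interaction test, and larger for ADAR2 at 0 of the 1180 (background 0.248%), with a background of 3.69% in either direction. In CRABP2 the E-to-Q libraries had 3.70% to 10.8% with the ADAR2 domain, against 0% to 1.35% in its wild-type libraries. With the ADAR1 domain they had 33.4% to 55.1%, against 1.81% to 5.80% in its wild-type libraries. LRPAP1, an endoplasmic reticulum chaperone of LDL receptor family members, had 2.95% to 7.86% with E488Q against 0.587% to 3.30% without it. With E1008Q it had 19.0% to 33.2%, against 1.21% to 8.90% in wild-type ADAR1 libraries. In CRABP2 the E-to-Q and wild-type groups did not overlap for either domain, and in LRPAP1 they overlapped for the ADAR2 domain but not for ADAR1. No count of such separation over all listed sites is given beside this.

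NLS forms had lower shares than NES forms at 58 stop codon sites (4.92%, background 3.76%) and higher shares at 0 (background 0.0397%), with a background of 3.8% in either direction. The mean share over the 1180 sites was 3.30% in NLS libraries and 5.56% in NES libraries, with a median difference of -1.58 points, beside -1.46 points over all listed sites. Of the 58, 36 were amber, 2 opal and 20 ochre. TRIB3 averaged 14.7% with NLS and 33.4% with NES (-18.7 ± 11.8 points, limma adjusted p = 0.029). MDK, the heparin-binding growth factor midkine, averaged 6.42% and 21.2% in those groups (-14.8 ± 13.5 points, limma adjusted p = 0.034), and CTNNBIP1, an inhibitor of beta-catenin, 9.07% and 21.5% (-12.4 ± 8.04 points, limma adjusted p = 0.040). All 3 were lower in 8 of 8 pairs. On shares as deposited, limma called 0 of the 1180 sites and the adjusted p of these 3 was 0.11 to 0.14. Leaving out 1 library gave 4 to 84 called sites, and for each of the 3 there were 7 to 11 libraries whose absence alone put the adjusted p above 0.05, at 0.083 or less.

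The ADAR2 domain gave lower shares than the ADAR1 domain at 870 stop codon sites (73.7%, background 66.0%) and higher shares at 10 (0.847%, background 2.6%), with a background of 68.6% in either direction. The mean share over the 1180 sites was 1.92% in MCP-ADAR2 libraries and 6.93% in MCP-ADAR1 libraries, with a median difference of -3.04 points, beside -2.68 points over all listed sites. PCNA, the sliding clamp of DNA replication, had 0.272% to 2.02% in the 8 MCP-ADAR2 libraries and 16.7% to 66.5% in the 8 MCP-ADAR1 libraries, with no overlap. Its means were 0.801% and 41.1% in those groups (-40.3 ± 18.2 points, limma adjusted p = 2e-06), and it has a pseudogene named after it. FAM219A averaged 4.88% with ADAR2 and 45.6% with ADAR1 (-40.7 ± 10.3 points, limma adjusted p = 1.4e-06). The opal codon of PCNX3, a multipass membrane protein, averaged 4.94% and 42.2% in those groups (-37.2 ± 16.3 points, limma adjusted p = 2e-06), and the last base of PCSK6 4.23% and 36.7% (-32.5 ± 13.7 points, limma adjusted p = 6.8e-06).

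The 10 sites with higher shares for the ADAR2 domain were 7 amber codons, 1 opal codon and 2 ochre second bases. MDK had 16.8%, 20.6%, 47.2% and 50.5% in MCP-ADAR2 DD (E488Q) libraries (NLS with and without guide, NES with and without guide) and 2.59%, 1.17%, 28.5% and 23.6% in MCP-ADAR2 DD libraries. In MCP-ADAR1 DD (E1008Q) libraries it had 4.69%, 4.29%, 7.61% and 7.36%, and in MCP-ADAR1 DD libraries 0.537%, 0.691%, 2.58% and 2.10%. Every MCP-ADAR2 library was above its matched MCP-ADAR1 library, and the mean difference was 20.1 ± 15.8 points (limma adjusted p = 0.00017). In full-length ADAR2 libraries the MDK share was at most 2.51%. TNPO3, which imports splicing factors into the nucleus, averaged 23.6% with the ADAR2 domain and 12.7% with ADAR1 (11.0 ± 5.56 points, limma adjusted p = 0.0021). FAM234A averaged 17.2% and 8.44% in those groups (8.73 ± 5.64 points, limma adjusted p = 0.0066). Within the NLS libraries alone the limma adjusted p of MDK was 0.071 and that of TNPO3 0.14, and within the NES libraries alone that of FAM234A was 0.053.

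In RPSA the adjacent adenosines of 1 ochre codon differed between the domains in opposite directions. The second base averaged 12.7% with the ADAR2 domain and 2.59% with ADAR1 (10.1 ± 5.78 points, higher in 8 of 8 pairs, limma adjusted p = 6e-05). The last base averaged 5.11% with the ADAR2 domain and 8.71% with ADAR1 (-3.61 ± 1.72 points, lower in 8 of 8 pairs, limma adjusted p = 0.0036). The highest share at the second base, 25.5%, was in MCP-ADAR2 DD-NES with guide, and the highest at the last, 12.2%, was in MCP-ADAR1 DD-NES with guide. Its pseudogenes could share these reads.

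The MS2 adRNA changed no stop codon site past the threshold in the MCP libraries. With limma 0 of the 1180 sites had an adjusted p under 0.05 in either direction, against a background of 0.000783% in either direction, all of it higher, and 0.0% lower. At an unadjusted p under 0.05 there were 31 sites (2.63%), beside 3.05% of all listed sites. The mean share was 4.55% with guide and 4.31% without. A site that missed the threshold is not thereby shown to have equal shares.

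Full-length ADAR2 and Cas13b-ADAR2 had higher shares than the MCP-ADAR2 fusions at some codons, and these values are given side by side without a test. ZBTB7B averaged 45.1% at its second base in the 4 full-length libraries, against 5.76% in the 8 MCP-ADAR2 libraries, and 42.0% against 5.11% at its last base. KLHL11, a kelch-like protein, had 59.3% and 28.2% in ADAR2 (E488Q) with and without guide and 41.4% and 31.8% in ADAR2, against a mean of 2.96% in the MCP-ADAR2 libraries. It was called in only 1 library. TJAP1 averaged 43.8% against 10.8%. Conversely, MDK and TNPO3 were at most 2.51% and 4.03% in the full-length libraries, against means of 23.9% and 23.6% in the MCP-ADAR2 libraries. PCNA, which was low in the MCP-ADAR2 libraries too, was at most 0.517% in the full-length libraries. For Cas13b-ADAR2 DD (E488Q) against MCP-ADAR2 DD (E488Q), BGLAP, or osteocalcin, which overlaps another gene, averaged 36.7% against 10.5%. CDIP1 averaged 42.3% against 21.3%, TRAF2, an adaptor of TNF receptors, 22.1% against 1.68%, and DDX39A, an mRNA export helicase, 27.8% against 9.25%.

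What a readthrough change would add to each protein was read from the annotated transcripts. At listed readthrough sites the next in-frame stop codon lay a median of 28 codons downstream (interquartile range 13 to 54, longest 317), and 45 of the 824 (5.46%) had no further in-frame stop codon in the transcript. Over all 6315 amber and opal stop codons of transcripts with a listed site the median was 21 codons (9 to 41), and 264 (4.18%) had none. An extension of 10 codons or fewer was found at 150 listed sites (18.2%), against 26.9% of all. The 6315 include the listed sites, which are richer in amber codons and in a G after the codon. The figures were not adjusted for this. Among readthrough sites called in at least 11 libraries, the longest extensions were in C7orf50 with 199 codons, MAP2K7, a kinase of the JNK pathway, with 182, CTSD, the lysosomal protease cathepsin D, with 174, and DNM2 with 146. C7orf50 gained 10.1 ± 6.82 points, MAP2K7 13.1 ± 10.5 and CTSD 7.10 ± 4.03. MED21 would gain 8 codons. DMKN, an epidermal secreted protein, and PTOV1, which overlaps another gene, had no further in-frame stop codon. They gained 10.0 ± 10.5 and 9.01 ± 7.07 points. No protein was measured in these files, so readthrough itself was not observed.

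Genes whose C-terminus or stop codon has a known role were looked at by list. None of the 7 genes with documented natural readthrough that had a listed transcript, all with an amber or opal codon, had a listed stop codon site. None of the 19 genes of translation termination and mRNA surveillance did (14 with an amber or opal codon). Over all amber and opal genes 13.0% (824 of 6315) had a listed site. Lists as small as 7 and 14 genes do not set 0 apart from that percentage. Of the 82 genes of cytosolic ribosomal proteins, 33 had a listed stop codon site, beside 1095 of 8821 over all genes with a listed transcript. Among those with an amber or opal codon it was 13 of 28 (46.4%), beside the same 13.0%. The median rise at their readthrough sites was small, 0.532 points against 3.01 points over all readthrough sites. Read depth of these messages is unknown, and its part in the count was not tested. RPS3 led the ribosomal list, followed by the second bases of RPS24 with 7.32 ± 10.2 points and RPSA with 5.98 ± 6.43 points.

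Among genes whose protein ends in an endoplasmic reticulum retention motif, 4 of 31 with an amber or opal codon had a listed readthrough site (12.9%). SERPINH1, a collagen chaperone, gained 10.4 ± 7.19 points, LRPAP1 7.75 ± 9.78 points and PRKCSH, the beta subunit of glucosidase II, 2.96 ± 2.96 points. The lectin chaperone CALR gained 0.387 points. A tryptophan codon at these places would put 66 codons behind the motif in LRPAP1 and in PRKCSH and 16 in SERPINH1. Of the proteins that end like a CaaX box, the signal for prenyl anchors, 9 of 57 had a readthrough site (15.8%). ZFAND2B, a proteasome-associated zinc finger protein, had the largest rise, 21.8 ± 13.1 points, but was called in only 4 libraries. DAPK3, a cell death kinase, gained 11.1 ± 9.13 points (9 libraries). PPP1R16A, a phosphatase subunit, gained 8.05 ± 5.60 points but was called in only 2 libraries. Of the proteins that end like a peroxisomal targeting signal, 1 of 28 had a readthrough site, CTSD, whose product resides in lysosomes. NPC2, a lysosomal cholesterol carrier, had an ochre site with 3.67 ± 4.10 points. Beside the 13.0% of all amber and opal genes, the shares for the retention motif and the CaaX box were near the background. The peroxisomal list rested on 1 readthrough site (3.57%). Matching the last residues of a protein to a motif does not show that the motif is used.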

How the data were processed

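Poly(A) RNA libraries (NEBNext kits, 300 ng RNA, paired HiSeq reads) were made from 30 samples, per the labels' protocols. STAR 2.6.0c, bcl2fastq 2.18.0.12, GRCh38.p12 and SAMtools are listed, without settings, in the submitters' processing notes. The authors deposited 1 table with the fraction of reads with G per site and sample, and 1 with adjusted p-values for the same sites. How these p-values were tested, against what reference, and how sites were chosen is not given in the sources used here. Depth per sample is unknown, so no counting interval is given. In the table of fractions 1 column bore no sample's name and was left out, which left untransfected runs 2, 3 and 4 as the control.

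Stop codons came from GENCODE release 29 on GRCh38 (bedtools 2.31.1, Python 3.11.15, pandas 2.3.3, numpy 2.4.6), 19576 in all. Of the 1180 members, 12 positions belong to 2 genes, 101 lie in an exon of another gene and 281 belong to genes with a pseudogene named after them. A rise is a share minus the mean of the untransfected runs. Samples were grouped by the construct, signal and guide in their labels. The 16 MCP libraries were fitted in R 4.3.3 with limma 3.58.1 after an arcsine square root transform, with variant, localisation, enzyme and guide as main effects and an intensity trend. With 1 library per condition 11 residual degrees of freedom give the spread. They mix noise with interactions and say nothing of separate cultures. The fit was tested on simulated data. Differences are means over 8 pairs ± SD in percentage points of share. Alternatives covered the transcripts used, overlapping genes and pseudogenes, the threshold on p, a minimum rise, the control runs, the scale, trend, terms and filter of the fit, and leaving out libraries. Figures were drawn with matplotlib 3.10.9.

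Named sites were the 12 readthrough and 6 stop-to-stop sites with the largest mean rise, up to 4 per factor and direction past the threshold with 8 of 8 pairs in 1 direction, sites called in all 22 libraries, the 4 leading ochre codons with both bases listed, the leading members of 6 gene lists, the extremes of added codons, and the 4 sites most favoured by full-length ADAR2 and by Cas13b. ETS2 as the leading opal codon, CALR, MANBAL and the lower sites other than RPSA and ACTB were named after their values were seen. One site that this rule names is not reported here. The members and lists were chosen with earlier results of these data known.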

Additional observations from a re-analysis of the deposited data

Results flagged for a closer look

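The difference between E-to-Q and wild-type forms itself differed between the deaminase domains at the opal codons of CRABP2 and LRPAP1, flagged because they passed the interaction test. Other named opal codons missed it, such as ST7 and PPP1R16A (limma interaction, adjusted p = 0.21 and 0.44). The differences are in points, and wild-type shares at the flagged codons were on average lower with the ADAR2 domain. In CRABP2 the E-to-Q minus wild-type difference was 5.55 points with the ADAR2 domain and 41.1 points with the ADAR1 domain, so that of ADAR2 less that of ADAR1 was -35.5 points (limma interaction, adjusted p = 0.012 over all listed sites). In LRPAP1 the difference was 3.76 points with the ADAR2 domain and 21.5 points with the ADAR1 domain, and that of ADAR2 less that of ADAR1 was -17.7 points (limma interaction, adjusted p = 0.029). Both codons are opal, and CRABP2 is followed by a G and LRPAP1 by an A. The depth of these libraries at either codon is unknown, and its part in the result was not tested.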

How the results depend on the processing

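The number of stop codon sites was 1508 with every protein-coding transcript, 1079 without sites in an exon of another gene and 899 without genes that have a named pseudogene, beside 1180. The median of 134 called sites per library and the 4 log2 ratios of matched pairs stayed within 1.5 times or 1 SD under the other thresholds and minimum rise, and leaving out each untransfected run gave 134 to 134 sites and log2 ratios of 1.98 to 1.98 for E-to-Q, -1.21 to -1.21 for NLS, -2.53 to -2.53 for ADAR2 and 0.54 to 0.54 for the guide. Those values could hardly move, since calls rest on the deposited p-values, which do not change when a run is left out, so they do not bear on how the calls depend on the control. The limma count for E-to-Q was 167 in the NES libraries alone and 191 in the NLS libraries alone, and that for the enzyme was 249 in the NLS libraries alone, each with fewer samples. Called NLS sites were 0 on shares as deposited, 91 with no intensity trend and 103 with an interaction term, and the cause was not tested. Leaving out each MCP library in turn gave 451 to 590 sites for E-to-Q, 4 to 84 for NLS, 828 to 897 for the enzyme and 0 to 0 for the guide, with the lowest NLS count of 4 without MCP-ADAR1 DD-NES, MCP-ADAR1 DD (E1008Q)-NES or MCP-ADAR1 DD (E1008Q)-NLS, each without guide. The NLS count was 6 to 18 without any other MCP-ADAR1 library, 12 without MCP-ADAR2 DD-NES with guide, 34 without MCP-ADAR2 DD-NLS with guide and 36 without MCP-ADAR2 DD (E488Q)-NLS without guide. For named sites no direction reversed, and 47 of 346 values fell short of the threshold. No paired analysis was possible because, as to replicate numbers, each condition is 1 library. The pairs used here match libraries by construct.

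Without read counts it cannot be said which shares rest on few reads, and a share listed at 0 has no upper limit here. Several high shares were not called, such as those of KLHL11.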
